A study of Homo sapiens with 2 samples.

Results

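The proteasome subunit genes were compared between HSC-1 cells given a control siRNA (siNC) and HSC-1 cells given an siRNA that targets LINP1 (siLINP1). Members were the protein-coding rows of the deposited gene table whose symbols begin with PSMA, PSMB, PSMC, PSMD or PSME followed by a digit, leaving out PSMC3IP, which is not a proteasome subunit. This rule, which used names only, found 43 genes among the 44591 rows of the table, of which 19233 are protein-coding. By the place of each product in the complex, 14 were constitutive core subunits, 17 regulatory particle subunits, 5 immunoproteasome genes, 3 assembly chaperones, 2 other activators and 2 tissue-restricted core subunits.

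HSC-1 is an established line from a cutaneous squamous cell carcinoma, and LINP1 is a long noncoding RNA known from repair of DNA breaks by nonhomologous end joining. Both groups were HSC-1 cells transfected at about 70% confluency, kept for 6 h in medium without serum and then for 24 h in medium with 10% serum, and differed only in the siRNA, siNC or siLINP1. The labels do not name which of the study's LINP1 siRNA oligonucleotides was transfected for sequencing. There was 1 library per condition, so every difference below compares those libraries and has no replicate check, and no p-value was computed. Intervals of single genes and of read ratios cover counting error only. Those of medians describe the spread over the genes of a list, which are not replicates. The comparison asks how loss of LINP1 changes the transcriptome, here the genes that make the cell's main protease.

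The siNC library held 18829544 counted reads and the siLINP1 library 15383081. LINP1 itself, annotated in hg19 at chr10:6779344-6780901 on the plus strand, had 167 reads in siNC and 23 in siLINP1, a log2 fold change of -2.65 (95% interval -3.35 to -2.02), so the target was lower in the library labelled siLINP1. The markers of the labelled cell type were mostly sparse. Of 15 squamous keratinocyte markers, 10 lay under 1 RPKM in siNC and 9 in siLINP1, with 32 and 24 reads on the basal keratin KRT5, 6 and 8 on TP63, and 1 and 0 on IVL. Others of the list were better read: KRT14 had 243 and 87 reads, SFN 264 and 138, DSP 699 and 512, and PERP 1158 and 1398. Of 8 mesenchymal markers, the intermediate filament gene VIM had 61097 and 41992 reads and SPARC 34148 and 21107. CDH2 had 1862 and 1092, FN1 1151 and 753, and ZEB1 697 and 883. COL1A1 had 190 and 79, SNAI2 16 and 24, and COL1A2 4 and 8. Of 15 leukocyte markers, 4 had no read in either library, the T cell genes CD3D and CD3E and the B cell gene MS4A1 among them. The pan-leukocyte gene PTPRC had 1 and 4. Well read were the MHC class II chaperone CD74 with 23864 and 17400 reads, HLA-DRA with 3093 and 1917, and CD68 with 1702 and 1307. The 15 leukocyte markers together held 0.153% of siNC reads and 0.135% of siLINP1 reads, most of them on CD74. The myeloid integrin gene ITGAM went the other way, with 12 and 148 reads and a log2 fold change of 3.83 (2.99 to 4.82). Leukocytes express immunoproteasome genes without stimulation, and the part of these markers in the immunoproteasome values was not tested.

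As background, the 26S proteasome degrades proteins tagged with ubiquitin. Its 20S core is a barrel of stacked rings: outer alpha rings (PSMA genes), which gate the entry, and inner beta rings (PSMB genes), in which PSMB5, PSMB6 and PSMB7 carry the active sites. The 19S regulatory particle caps the barrel. Its base holds the ATPases (PSMC genes) that unfold the substrate and pull it in, and its lid holds the deubiquitinase PSMD14 that removes the ubiquitin chain. Interferons induce PSMB8, PSMB9 and PSMB10, which replace PSMB5, PSMB6 and PSMB7 in newly built immunoproteasomes, and the activators PSME1 and PSME2, which open the core in place of the 19S particle. Immunoproteasomes favour peptides suited to MHC class I molecules. When the proteasome is impaired, the transcription factor NFE2L1 is released to raise subunit genes through antioxidant response elements.

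The promoters of the inducible catalytic genes are shown because their fold changes spread more widely than those of any other role among the members. A match to a motif is given as a description of these letters, not as a site in use. The RefSeq promoter table (build GRCh38.p14) holds windows of 250 bases before to 50 after a gene's start site, and 38 of the 43 members matched it. PSMA7, PSMB1, PSMB6, PSMB7 and PSMD4 did not. Each window is written 5′ to 3′ on the strand of its gene, with motif matches in capitals.

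PSMB8, chr6:32843998-32844297, minus strand: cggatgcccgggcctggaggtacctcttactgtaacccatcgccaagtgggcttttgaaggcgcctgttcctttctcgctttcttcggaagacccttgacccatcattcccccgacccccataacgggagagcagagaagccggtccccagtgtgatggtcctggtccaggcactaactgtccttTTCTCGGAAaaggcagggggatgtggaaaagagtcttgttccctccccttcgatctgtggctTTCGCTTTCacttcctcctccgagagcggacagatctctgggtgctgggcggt
PSMB9, chr6:32853942-32854241, plus strand: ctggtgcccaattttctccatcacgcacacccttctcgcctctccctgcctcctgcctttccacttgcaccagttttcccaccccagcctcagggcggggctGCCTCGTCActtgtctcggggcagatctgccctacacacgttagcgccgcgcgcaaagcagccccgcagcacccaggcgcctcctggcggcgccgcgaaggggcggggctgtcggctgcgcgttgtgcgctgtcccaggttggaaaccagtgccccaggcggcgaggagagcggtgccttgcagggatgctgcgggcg
PSMB10, chr16:67936801-67937100, minus strand: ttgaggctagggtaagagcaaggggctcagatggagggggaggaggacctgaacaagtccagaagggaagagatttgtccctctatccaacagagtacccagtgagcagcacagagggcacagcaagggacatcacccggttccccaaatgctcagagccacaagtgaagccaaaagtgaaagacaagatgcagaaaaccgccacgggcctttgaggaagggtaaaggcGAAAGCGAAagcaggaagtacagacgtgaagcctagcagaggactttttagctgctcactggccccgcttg

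Counting the start site as base 0, the PSMB8 window holds TTCTCGGAA at -65 to -57, a match to the interferon-gamma activated site (TTCNNNGAA), and TTCGCTTTC at -3 to 5, which is the interferon response core (GAAANNGAA) read on the other strand. The PSMB10 window holds the same core as GAAAGCGAA at -21 to -13. The PSMB9 window holds neither, and carries GCCTCGTCA at -148 to -140, an antioxidant response element (TGACNNNGC or TGAGNNNGC) on the other strand. PSMB8 has a further window in the table, at chr6:32844630-32844929, in which none of the motifs searched was found. Both strands were searched throughout, and motifs may overlap each other.

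Over the members, the interferon response core was found in the promoters of 4 of the 5 immunoproteasome genes (PSMB8, PSMB10, PSME1 and PSME2), in 2 of 10 core genes (PSMA4 and PSMB4) and in 1 of 16 regulatory genes (PSMC2), where 9.86% of the 27305 genes of the promoter table hold it. The antioxidant response element was found for 6 of 10 core, 8 of 16 regulatory and 3 of 5 immunoproteasome genes, against 33.7% of all genes. The interferon-gamma activated site was found for 2 of 10, 3 of 16 and 1 of 5, against 9.38%. The NF-kB site was found for 1 member, PSMA4, against 7.09% of all genes.

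The proteasome genes differed little between the libraries as a set, but the core and the regulatory particle lay apart. Of the 41 members with at least 10 reads, 0 were higher in siLINP1 by more than 1.5-fold, the fold criterion of the study, and 1, PSMB10, was lower by more than 1.5-fold. With GC and length trends removed that call was lost (-0.44 on the log2 scale) and PSMB2 was the member past 1.5-fold (-0.60). Over all 19840 genes with at least 10 reads, 14.4% were higher and 13.0% were lower by that rule. Most members are well read, and 40 had at least 1000 reads in both libraries together. Among all 7071 genes read that deeply, 5.47% were higher and 3.56% were lower by more than 1.5-fold.

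By the counting interval, 11 of the 41 members lay wholly above no change and 20 wholly below, against 23.0% and 25.6% of all genes with at least 10 reads. Scaling by total counted reads turned this balance, with 16 above and 14 below, and so did removal of the length trend, with 18 and 13. Of the 40 deeply read members, 11 lay above and 19 below, and the same rule put 31.7% of all deeply read genes above and 40.7% below. The members' shares thus lie near that background. Their median log2 fold change was -0.09 (95% interval -0.20 to 0.05), beside -0.04 for all deeply read genes. All members together made up 0.530% of siNC reads and 0.538% of siLINP1 reads.

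**Figure D1:**
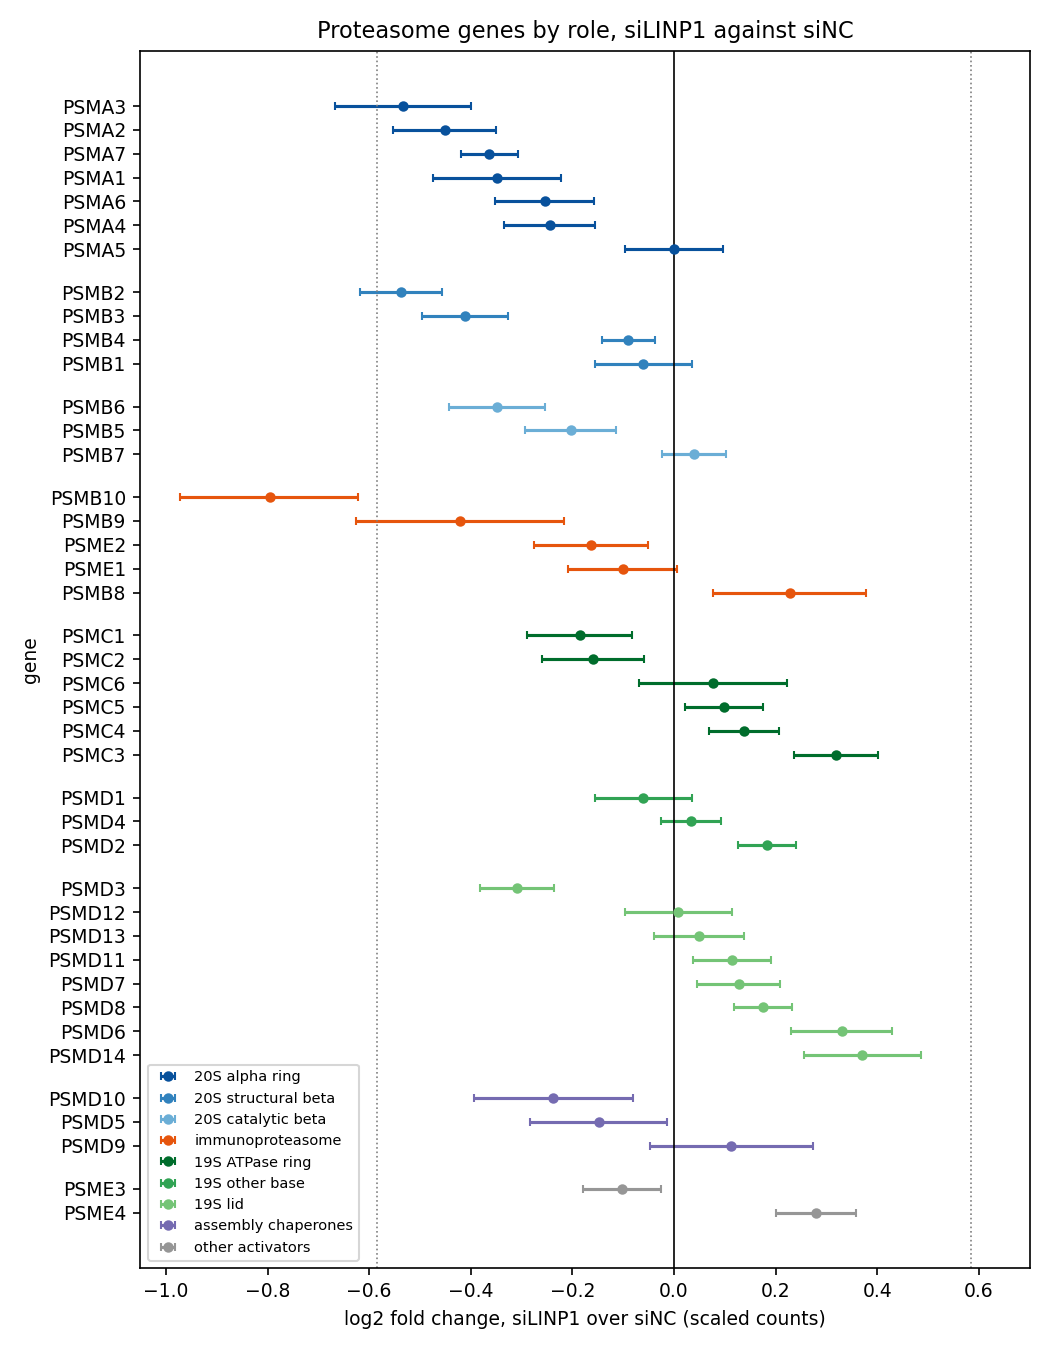
Log2 fold change of each member with at least 10 reads, siLINP1 over siNC, grouped by role. Points are scaled counts of 1 library per condition, bars are 95% counting intervals and dotted lines mark 1.5-fold. The 20S core genes lie between -0.54 and 0.04, most 19S genes lie above 0, and PSMB10 is the point beyond the left dotted line.

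The constitutive 20S core genes were mostly lower in siLINP1. Of the 14, 12 had a log2 fold change below 0, with 11 whole intervals below and 0 above, and the median was -0.30 (95% interval -0.45 to -0.06). Over all deeply read genes 40.7% of intervals lay below and 31.7% above. Of the 206 deeply read protein-coding genes of 796 to 1100 bases, 150 lay below and 12 above. The 7 core genes up to 1100 bases had 5 below and 0 above, so their count lies near that of short genes in general. With the trend over gene length removed the median was -0.11, with 8 whole intervals below and 3 above, and with GC and length trends removed it was -0.12, with 8 below and 1 above. Together they held 40855 reads in siNC and 29971 in siLINP1, or 0.217% and 0.195% of the libraries.

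In the alpha ring, the gated entrance of the barrel, 6 of 7 intervals lay below no change, against 40.7% of all deeply read genes, and the median was -0.35. PSMA3 (alpha7) was the lowest of them, with 1208 reads in siNC and 722 in siLINP1, 64.3 and 47.0 RPKM, and a log2 fold change of -0.53 (-0.67 to -0.40). For PSMA2 (alpha2), 2032 and 1285 reads gave -0.45 (-0.55 to -0.35). RPKM (reads per kilobase of gene length) is set to each library's total reads, so small RPKM differences can have another sign than the scaled fold change. The most abundant alpha gene per length was PSMA7 (alpha4), at 324 RPKM in siNC and 266 in siLINP1, from 6287 and 4226 reads, a log2 fold change of -0.36 (-0.42 to -0.31). PSMA1 (alpha6), PSMA6 (alpha1) and PSMA4 (alpha3) gave -0.35, -0.25 and -0.25. PSMA5 (alpha5), the longest alpha gene of the table, at 25.6 RPKM in siNC (the lowest of the ring there) and 27.2 in siLINP1, did not share this: its 1866 and 1614 reads gave 0.00 (-0.10 to 0.10).

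The structural beta genes, which build the inner ring without an active site, were spread over the same range. PSMB2 (beta4) had 3290 siNC and 1961 siLINP1 reads, 36.1 and 26.3 RPKM, the lowest log2 fold change of the core at -0.54 (-0.62 to -0.46). PSMB3 (beta3) followed with 2892 and 1880 reads and -0.41 (-0.50 to -0.33). By contrast PSMB4 (beta7), the member with the highest level per length, stood at 384 and 382 RPKM from 6694 and 5439 reads, a log2 fold change of -0.09 (-0.14 to -0.04) that turned to 0.13 once the trend with gene length was removed. For PSMB1 (beta6), with 1968 and 1632 reads, the interval of -0.16 to 0.03 around -0.06 includes no change. So subunits that are built into every core in equal number had levels per length from 25.6 RPKM (PSMA5) to 384 RPKM (PSMB4) in siNC, and the ratio of the highest to the lowest was 14.5 in siLINP1. That range depends on the gene length used as divisor, 3864 bases for PSMA5 and 925 for PSMB4. Their siNC reads were 1866 and 6694.

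The catalytic core genes differed from each other. PSMB6 (beta1, caspase-like) had 2264 siNC and 1538 siLINP1 reads, 138 and 115 RPKM, and a log2 fold change of -0.35 (-0.44 to -0.25). PSMB5 (beta5, chymotrypsin-like, the main target of bortezomib) had 2383 and 1790 reads, 87.0 and 80.0 RPKM, and -0.20 (-0.29 to -0.11), which went to 0.00 after trends with GC content and length were removed. PSMB7 (beta2, trypsin-like) had 4289 and 3811 reads, 224 and 244 RPKM, and 0.04 (-0.02 to 0.10), an interval that includes no change. Other settings put PSMB7 above that interval. It gave 0.12 with total-count scaling, 0.25 with the length trend removed and 0.21 with GC and length trends removed.

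The 19S regulatory genes were mostly higher in siLINP1, by small amounts. Of the 17, 13 had a log2 fold change above 0, with 9 whole intervals above and 3 below, and the median was 0.10 (95% interval 0.01 to 0.17). Over all deeply read genes 31.7% of intervals lay above and 40.7% below. Their reads went from 45647 in siNC to 41823 in siLINP1, which is 0.242% and 0.272% of the libraries.

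Of the 6 ATPases of the base, which form the ring that unfolds substrates, PSMC3 (RPT5) was the highest in fold, with 2330 reads in siNC and 2513 in siLINP1, 78.3 and 103 RPKM, and a log2 fold change of 0.32 (0.24 to 0.40). PSMC4 (RPT3), the most abundant of the ring at 99.2 and 116 RPKM, gave 0.14 (0.07 to 0.21), and PSMC5 (RPT6) 0.10 (0.02 to 0.18). PSMC1 (RPT2) was the lowest in fold, with 1777 and 1351 reads and -0.19 (-0.29 to -0.08), and PSMC2 (RPT1) gave -0.16 (-0.26 to -0.06). The least read, PSMC6 (RPT4), had 809 and 738 reads and an interval of -0.07 to 0.22 around 0.08. Both directions are therefore seen within this ring, whose ATPases are assembled in equal number.

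Among the other base subunits, the scaffold PSMD2 (RPN1) had 5080 reads in siNC and 4988 in siLINP1, a log2 fold change of 0.18 (0.13 to 0.24). The scaffold PSMD1 (RPN2) gave -0.06 (-0.16 to 0.04) at 31.3 and 31.7 RPKM. The ubiquitin receptor PSMD4 (RPN10), which among the 17 regulatory members had the highest level per length at 191 and 207 RPKM, gave 0.03 (-0.03 to 0.09). Neither of these last intervals excludes no change.

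In the lid, 7 of the 8 PSMD genes lay above 0 and 5 whole intervals lay above no change, against 31.7% of all deeply read genes. PSMD14 (RPN11), the deubiquitinase, had the highest log2 fold change of all members as reported here, 0.37 (0.26 to 0.49). It had 1167 reads in siNC and 1305 in siLINP1, or 36.1 and 49.4 RPKM. With GC and length trends removed PSMD14 gave 0.24, below PSMC3 at 0.53. PSMD6 (RPN7) was next in the lid as reported, with 1575 and 1712 reads and 0.33 (0.23 to 0.43). PSMD8 (RPN12), the most abundant lid gene per length at 169 and 202 RPKM, gave 0.17 (0.12 to 0.23), and PSMD7 (RPN8), the partner of PSMD14, gave 0.13 (0.05 to 0.21). PSMD3 (RPN3) was the lid member below no change, with 3711 and 2591 reads and -0.31 (-0.38 to -0.24). PSMD12 (RPN5), the lowest lid gene per length at 18.0 and 19.2 RPKM, did not differ beyond counting error, at 0.01 (-0.10 to 0.11).

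**Figure D2:**
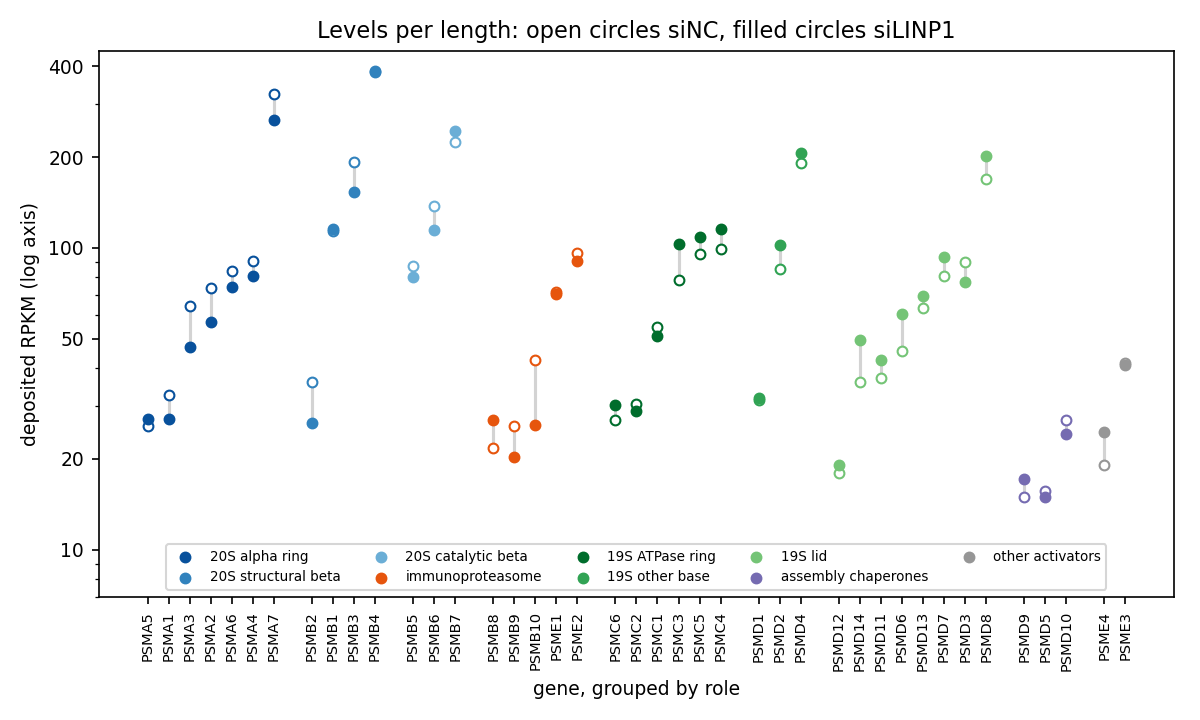
Deposited RPKM of each member with at least 10 reads in siNC (open circles) and siLINP1 (filled circles), 1 library each, on a log axis and grouped by role. PSMB4 is the highest member at 384 and 382 RPKM, core genes spread over a 14.5-fold range in siLINP1, and the filled circle lies below the open circle for most core genes and above it for most regulatory genes.

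The ratio of reads within a library does not depend on how libraries are scaled. Regulatory reads were 1.12 times core reads in siNC and 1.40 times in siLINP1, a log2 change of 0.32 (95% interval 0.29 to 0.35), a ratio chosen after the values were seen. Reads of the ATPase genes against those of the alpha ring changed by 0.39 (0.34 to 0.44). These intervals are narrow because many reads enter each sum, and say nothing of the spread between cultures.

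Gene length differed between these sets as well. The median length in the table was 1157.5 bases for the core genes and 1841 bases for the regulatory genes, and short genes were lower in siLINP1 in general. The 206 protein-coding genes with at least 1000 reads and a length of 796 to 1100 bases had a median log2 fold change of -0.30, and the 7 core genes up to 1100 bases had -0.35. No regulatory gene is that short. Among members of 1400 to 2100 bases, where both sets have genes, the 4 core genes (PSMA1, PSMA2, PSMA4 and PSMB5) had a median of -0.30 with 4 of 4 intervals below no change, and the 10 regulatory genes had 0.13 with 7 above and 1 below. After the trend with length over all genes was removed, the difference between the regulatory and core medians was 0.32, where it was 0.40 as reported, and it was 0.22 after trends with GC content and length were removed. The length in that last setting is that of a gene's longest GENCODE transcript, not the length used above. The lengths can differ widely, as for PSMA2 with 5365 and 1466 bases. PSMB2, at 4846 bases, is the longest core gene and also the one lowest in fold.

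**Figure D3:**
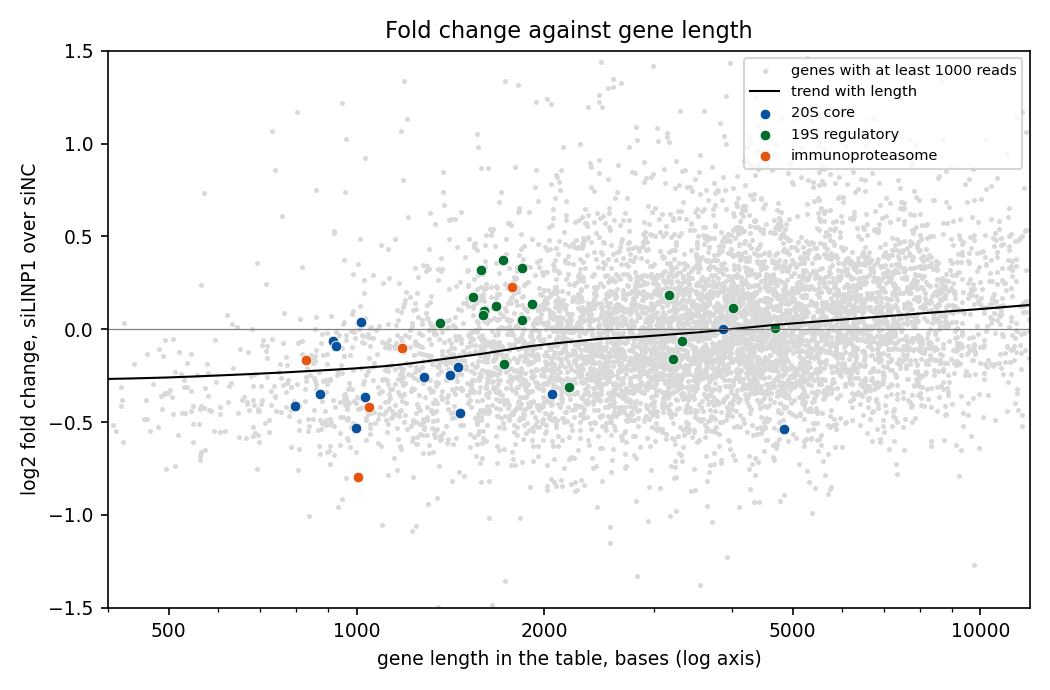
Log2 fold change, siLINP1 over siNC, against gene length in the table on a log axis, for all genes with at least 1000 reads (grey), the 20S core, the 19S regulatory and the immunoproteasome genes. The line is the trend fitted over genes with at least 100 reads, which lies below 0 for short genes. PSMB10 and most short core genes lie below it and most regulatory genes above it.

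The immunoproteasome genes differed in direction. Of the 5, PSMB8 was higher in siLINP1, PSMB9, PSMB10 and PSME2 were lower (PSME2 turning to 0.06 with the length trend removed), and the interval of PSME1 includes no change, with a median of -0.16 and a range of -0.80 to 0.23. As reported here, though not with GC and length trends removed, the member with the largest difference was PSMB10 (beta2i), which had 805 siNC and 401 siLINP1 reads, 42.5 and 25.9 RPKM, and a log2 fold change of -0.80 (-0.97 to -0.62), or 1.74-fold lower. PSMB9 (beta1i) had 506 and 327 reads, 25.6 and 20.3 RPKM, and -0.42 (-0.63 to -0.22). PSMB8 (beta5i) had 725 and 734 reads from a smaller siLINP1 library, 21.7 and 26.9 RPKM, and 0.23 (0.08 to 0.38). The ranking of these genes by level per length was thus PSMB10 above PSMB9 above PSMB8 in siNC, whereas in siLINP1 PSMB8 and PSMB10 had overlapping counting intervals, at 26.9 RPKM for PSMB8 and 25.9 RPKM (23.4 to 28.6) for PSMB10.

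The activators showed smaller differences. PSME1 (PA28alpha), at 71.4 and 70.5 RPKM, had 1588 reads in siNC and 1281 in siLINP1, a log2 fold change of -0.10 (-0.21 to 0.01). Its partner PSME2 (PA28beta), at 96.0 and 90.8 RPKM, had 1499 and 1158 reads and -0.16 (-0.27 to -0.05), or 0.06 with the length trend removed. The ratio of PSME1 to PSME2 reads, which form a mixed ring, changed by a log2 value of 0.06 (-0.09 to 0.22), an interval that includes no change.

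Each inducible catalytic gene was also set against the constitutive gene it replaces, within each library. The PSMB8 to PSMB5 read ratio was 0.304 in siNC and 0.410 in siLINP1, a log2 change of 0.43 (0.26 to 0.61). The PSMB9 to PSMB6 ratio was 0.223 and 0.213, and its log2 change of -0.07 (-0.30 to 0.15) was not beyond counting error, because both genes were lower. The PSMB10 to PSMB7 ratio was 0.188 and 0.105, a log2 change of -0.83 (-1.02 to -0.65). Over the 3 pairs together the inducible genes had 2036 reads against 8936 in siNC and 1462 against 7139 in siLINP1, a log2 change of -0.15 (-0.26 to -0.05). The pooled value has the sign of the PSMB10 pair and not of the PSMB8 pair. Between inducible genes, the PSMB8 to PSMB10 ratio changed by 1.02 (0.79 to 1.26) on the log2 scale.

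**Figure D4:**
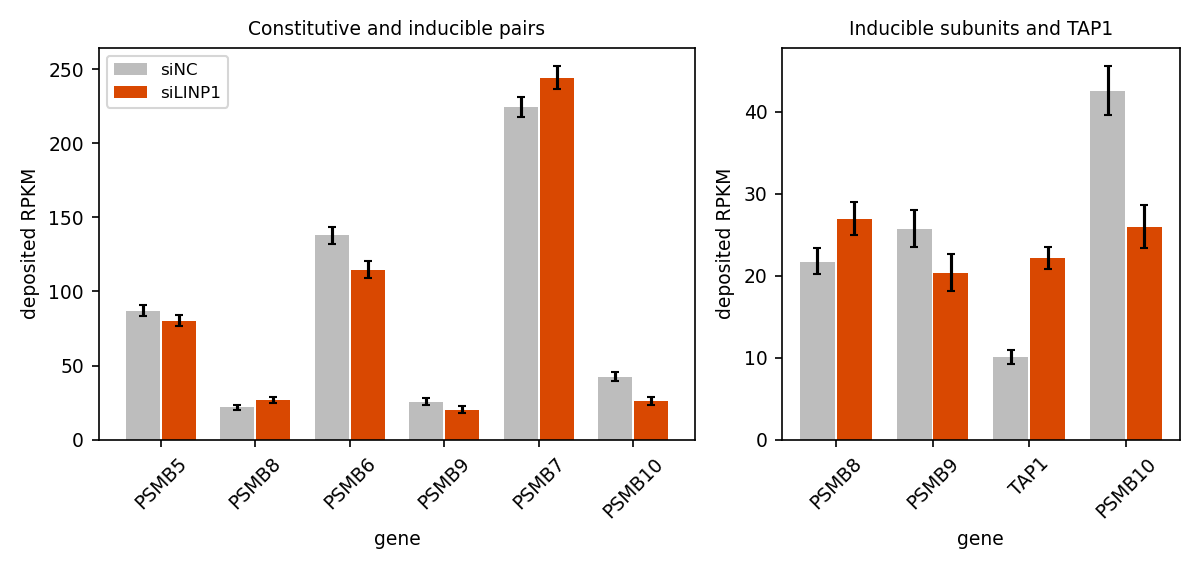
Deposited RPKM of the constitutive catalytic genes beside their inducible counterparts (left) and of the inducible genes beside TAP1 (right), siNC in grey and siLINP1 in orange, 1 library each, with bars as exact Poisson 95% counting intervals. PSMB10 stands at 42.5 RPKM in siNC and 25.9 in siLINP1 and TAP1 at 10.1 and 22.2, while PSMB8 is higher and PSMB9 lower in siLINP1.

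PSMB8 and PSMB9 lie in the MHC class II region of chromosome 6, in hg19 at chr6:32808494-32812712 on the minus strand and chr6:32821938-32827628 on the plus strand, with TAP1, the peptide transporter of MHC class I loading, between them. A gap of 189 bases separates TAP1 and PSMB9, which are transcribed away from each other. TAP1 had 596 siNC and 1072 siLINP1 reads, 10.1 and 22.2 RPKM, and a log2 fold change of 1.06 (0.91 to 1.20), so the PSMB9 to TAP1 read ratio changed by -1.48 (-1.73 to -1.22) on the log2 scale. These neighbours therefore differed in opposite directions between the libraries. Of 9 genes of peptide loading and interferon control, 2 were higher by more than 1.5-fold, TAP1 and the transcription factor IRF1 (1101 and 1825 reads, 0.94), and 0 were lower, with 4 whole intervals above and 1 below. Over all genes with at least 10 reads, 14.4% were higher by that fold and 23.0% had a whole interval above, and over deeply read genes 5.47% and 31.7%. PSMB10 is at chr16:67968407-67970780 on the minus strand in hg19, outside the MHC.

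The PSMB8 count may be affected by another transcript. PSMB8-AS1, a noncoding gene on the opposite strand, covers 17.3% of the annotated exon bases of PSMB8 and had 85 reads in siNC and 128 in siLINP1, a log2 fold change of 0.80 (0.39 to 1.21). The strand setting of the counting, and how it treated reads on overlapping genes, are not given in the sources used here. Without strand, reads on shared bases cannot be told apart. Whether such reads were added to a count or left out of it is not known. The same holds for PSMC1, of which 76.1% of annotated exon bases are shared with NRDE2 (245 and 208 reads) on the opposite strand, and for PSMC5, of which 15.3% are shared with FTSJ3 (4901 and 4731 reads), also on the opposite strand. These shares are of the exon bases of all GENCODE transcripts of a gene, not of the gene models that were counted. For PSMC1 the exon bases number 6129, with 4667 shared, where the counted gene has 1721 bases. The share of counted bases that overlap is therefore not known. PSMB10 shares 39.4% of its GENCODE exon bases with ENSG00000261884 and PSMA1 26.7% with ENSG00000256206, both on the same strand. PSMD7 shares 31.2% with ENSG00000259972 on the opposite strand. These overlapping genes have no reads of their own here under those names, so their part in the member counts was not tested. The 38 pseudogene rows named after members held 35 reads in siNC and 23 in siLINP1, at most 0.388% of the reads of their parent gene.

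The remaining members showed no common direction. The base chaperones PSMD10 (gankyrin), PSMD5 (S5B) and PSMD9 (p27) gave -0.24 (-0.39 to -0.08), -0.15 (-0.28 to -0.01) and 0.11 (-0.05 to 0.27), at 26.9, 15.6 and 14.9 RPKM in siNC. Of the nuclear activators, PSME4 (PA200), which had 2547 reads in siNC and 2673 in siLINP1, was higher at 0.28 (0.20 to 0.36), and PSME3 (PA28gamma) was lower at -0.10 (-0.18 to -0.02). The thymus form PSMB11 had 3 and 1 reads and the testis form PSMA8 had 0 and 0, which allows at most 3 reads in each library, so no fold is given for either.

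The genes that build, regulate or feed the proteasome were described from a list of 35, all with at least 10 reads. Of these, 3 were higher by more than 1.5-fold and 1 was lower, with 9 whole intervals above no change and 14 below, and the median was -0.03. Over all deeply read genes 5.47% were higher and 3.56% lower by that fold, with 31.7% of intervals above and 40.7% below, so the list's interval counts lie near the background. The highest was DDI2, the protease that cleaves NFE2L1 into its active form, with 289 reads in siNC and 484 in siLINP1 and a log2 fold change of 0.95 (0.74 to 1.17). NFE2L1 itself had 5728 and 6215 reads and 0.33 (0.28 to 0.38), and NGLY1, which removes its glycans, had 620 and 648 reads and 0.27 (0.11 to 0.43).

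Ubiquitin genes and core chaperones were described from the same list. The polyubiquitin gene UBB had a log2 fold change of -0.14 (-0.18 to -0.10), from 11535 and 9070 reads, and RPS27A, which encodes ubiquitin fused to a ribosomal protein, had -0.38 (-0.42 to -0.34), from 14045 and 9352 reads. Of the 7 chaperones of core assembly and nuclear import, PSMG4 (PAC4) was the gene past 1.5-fold downward, with 302 and 150 reads and -0.80 (-1.09 to -0.51). POMP, which completes the beta ring, had 2197 and 1390 reads and -0.45 (-0.55 to -0.35). AKIRIN2, which brings proteasomes into the nucleus, was higher at 0.29 (0.14 to 0.44), PSMG2 and IPO9 gave 0.10 and -0.01 with intervals that include no change, and the median of the 7 was -0.08.

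**Figure D5:**
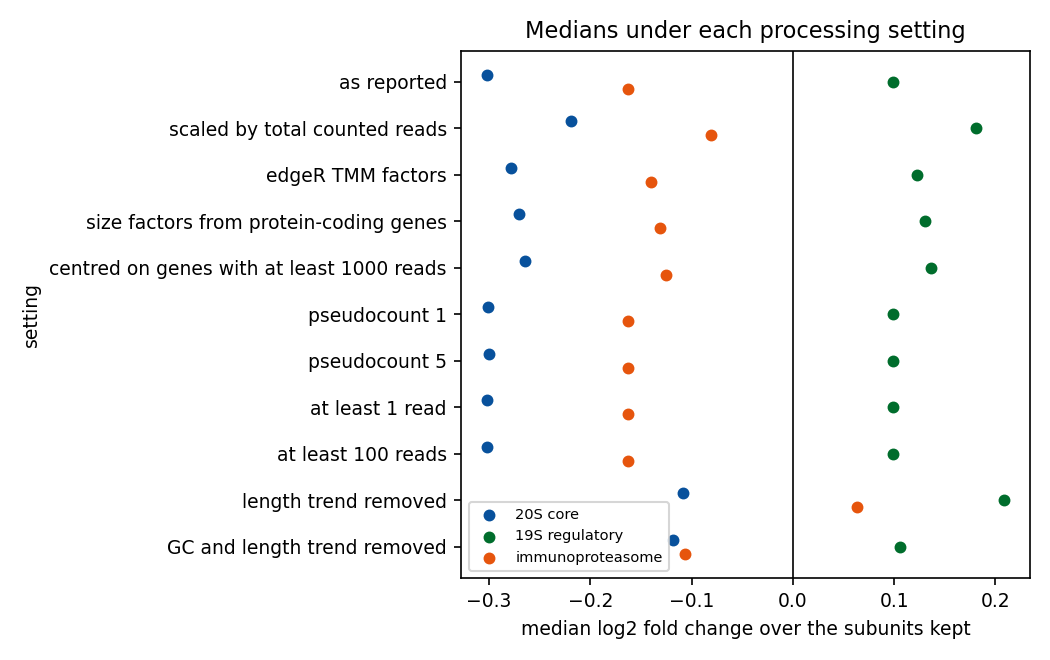
Median log2 fold change, siLINP1 over siNC, of the 20S core, 19S regulatory and immunoproteasome genes under each processing setting (rows), computed from 1 library per condition. The core median stays below 0 and the regulatory median above 0 in every setting drawn, and the immunoproteasome median passes 0 when the length trend is removed.

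Levels of the members were otherwise close between the libraries. Over the 41 members with at least 10 reads, log2 RPKM in siNC and siLINP1 had a Pearson correlation of 0.975, a description across genes that share each library. A bulk library cannot tell fewer cells of a type from less RNA per cell, and this holds for each difference above.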

How the data were processed

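The siNC and siLINP1 libraries, 1 each, were made from total RNA of HSC-1 cells and sequenced by Illumina HiSeq. The authors used Tophat2 for alignment to GRCh37/hg19 and HTSeq for counting. The processing notes also list HISAT2, HISAT and Bowtie2, and versions, annotation and strand setting are not given in the sources used here. Each row of the deposited table gives a gene's raw read count per library, its length and, as the authors computed it, its RPKM. Here, 12 other per-sample columns of the table were not used.

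Median-of-ratios size factors (1.08 for siNC and 0.930 for siLINP1) scaled the counts, genes with under 10 reads in both libraries together were left out, and no pseudocount entered the log2 fold change. A gene's split of reads between libraries gave its 95% interval (Clopper-Pearson). Read ratios were given conditional exact intervals, and medians distribution-free intervals from the order of the genes in a list, without counting error. No model of the spread could be fitted. Alternatives were total-count, TMM, protein-coding and deep-gene scalings, pseudocounts of 1 and 5, minimums of 1 and 100 reads, and removal of a lowess trend (fraction 0.3) with length. Removal of GC and length trends and the length window were added after the data were seen. The GC and length trends used the GC content and length of each gene's longest GENCODE transcript. These were known for 82.2% of the genes kept, and the others were left unadjusted in that setting.

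The members and lists were chosen with earlier results of these data known. Genes named were LINP1, the immunoproteasome genes and their counterparts, members or list genes past 1.5-fold, and the highest and lowest of each role in fold or RPKM. Others were named after their values were seen. Some results on single genes are not reported here. The calculations were tested on simulated data. TMM factors came from edgeR 4.0.16 in R 4.3.3, and the rest from Python 3.11.15 with scipy 1.17.1, pandas 2.3.3, numpy 2.4.6, matplotlib 3.10.9 and statsmodels 0.14.6.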

Additional observations from a re-analysis of the deposited data

How the results depend on the processing

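No paired analysis was possible because there is 1 library per condition, and for the same reason no library could be left out. The median of the core genes stayed below 0 and that of the regulatory genes above 0 under every scaling, pseudocount, read minimum and trend removal tried. With the length trend removed, 18 member intervals lay above no change and 13 below, where 11 and 20 were reported, the core median became -0.11, the regulatory median 0.21, and the immunoproteasome median became 0.06. Scaling by total counted reads shifted every gene alike, with the median of all genes at 0.06 instead of -0.02, and gave 16 member intervals above and 14 below, a regulatory median of 0.18 and a pathway list median of 0.053, where it was -0.03. With a minimum of 1 read, 2 members were lower by more than 1.5-fold, PSMB11 being the added one with 3 and 1 reads. With GC and length trends removed the core median was -0.12, PSMB10 gave -0.44, under 1.5-fold, and PSMB2 gave -0.60, past it. PSMB8 stayed above 0, and PSMB9 and PSMB10 below 0, under every setting. The log2 change of the inducible to constitutive ratio was -0.26 from RPKM, -0.83 for the PSMB10 pair alone and reversed to 0.43 for the PSMB8 pair alone, by construction, since the pairs differ. The causes of the other changes were not tested. Of the values of single members under the alternatives, 270 stayed within the reported counting interval and 55 left it. A further 3 changed sign although the reported interval excluded no change: PSMB4 (0.13) and PSME2 (0.063) with the length trend removed, and PSMB5 (0.0012) with GC and length trends removed. Depth limits PSMA8 and PSMB11, and the lack of replicates limits every difference.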

Other observations

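The other antisense genes named after members were counted too. PSMD5-AS1 had 423 reads in siNC and 306 in siLINP1, a log2 fold change of -0.26 (-0.47 to -0.04), beside -0.15 for PSMD5. PSMA3-AS1 had 237 and 220 reads and 0.10 (-0.17 to 0.37), an interval that includes no change, where PSMA3 was at -0.53. PSMD6-AS2 had 18 and 28 reads, too few to place its difference of 0.85 (-0.06 to 1.79) on either side of 0. The lid protein SEM1, outside the PSM names, had 1227 and 836 reads and -0.34 (-0.47 to -0.22), and the proteasome deubiquitinase USP14 had 1603 and 1153 reads and -0.27 (-0.38 to -0.16). ADRM1, also bound to the proteasome and outside the PSM names, stood at 218 and 213 RPKM and gave -0.12 (-0.17 to -0.06). Like SEM1, it lay below no change, where most regulatory members lay above. SEM1 is 498 bases long, where the regulatory members have 1362 to 4690, and short genes were lower in general. The part of length in its value was not tested. SEM1, USP14 and ADRM1 were named after their values were seen.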
